A study of Mus musculus with 8 samples.

Results

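The 10 genes described here belong to the small vessels of the retina and the point at which white blood cells attach to them. They are Cldn5, Pecam1 and Cdh5 of endothelial junctions, Vegfa with its receptors Kdr and Flt1, Pdgfrb and Rgs5 of pericytes, and Icam1 and Vcam1 of leukocyte adhesion. They were chosen by symbol, and all 10 were found among the 24860 genes listed in a table of FPKM, a fragment count scaled by transcript length and by the fragments mapped in the library. RNA sequencing was done on 8 mouse retina libraries. In 4 of them (AAV2-shCX36) the adeno-associated virus AAV2 carried a hairpin that targets connexin 36, which forms gap junctions between neurons, and the other 4 (AAV2-scramble) are its scrambled-hairpin controls. Both groups thus received AAV2, and the labels name retinal ganglion cells as the cell type. Strain, age, sex, injury, time after injection, the promoter of the hairpin, any sorting and the number of mice per library are not given in the sources used here. Each log2 difference is the AAV2-shCX36 mean of log2(FPKM + 1) less that of AAV2-scramble. It was tested with limma over the 12858 genes that averaged 1 FPKM or more, and a gene was called at a Benjamini-Hochberg adjusted p under 0.05. All 10 genes passed this filter.

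Retinal capillaries are lined by endothelial cells that are sealed to one another by tight and adherens junctions and wrapped by pericytes, and together these form the inner blood-retina barrier. VEGF-A, made in the retina mainly by glia and neurons, acts on endothelial receptor tyrosine kinases to keep vessels alive and to drive their growth, and raises their permeability in disease. In inflammation, cytokines such as TNF, interleukin-1 and interferon gamma induce the adhesion molecules ICAM-1 and VCAM-1 on the vessel wall, where leukocyte integrins bind them after selectins have slowed the rolling cell.

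The stretch before the start of Icam1 is shown because it holds letters that match motifs of factors that induce adhesion genes, and the one before Cldn5 because it is a barrier gene with none of them. RefSeq promoter entries of GRCm38.p6 were matched for 6 of the 10 symbols (Cldn5, Vegfa, Kdr, Flt1, Rgs5 and Icam1), and the 250 bases before the start are used. The capitals mark matches, on either strand, to GGNNNTTCC (an NF-kB motif), TTCNNNGAA (a GAS motif of interferon gamma signalling) or GAAA, any 2 bases and GAAA (an IRF motif).
Icam1, chr9:21015690-21015939, plus strand: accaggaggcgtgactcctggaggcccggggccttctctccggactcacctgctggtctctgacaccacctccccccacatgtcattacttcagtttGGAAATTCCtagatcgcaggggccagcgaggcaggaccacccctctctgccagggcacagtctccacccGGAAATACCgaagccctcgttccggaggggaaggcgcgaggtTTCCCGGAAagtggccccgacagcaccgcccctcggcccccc
Cldn5, chr16:18776597-18776846, plus strand: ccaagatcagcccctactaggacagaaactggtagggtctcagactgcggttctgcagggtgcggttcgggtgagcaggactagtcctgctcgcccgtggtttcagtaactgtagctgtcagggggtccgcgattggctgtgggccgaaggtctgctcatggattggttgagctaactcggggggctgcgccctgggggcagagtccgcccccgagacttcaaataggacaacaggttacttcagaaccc
The Icam1 stretch held the NF-kB letters at 2 places, 153 to 145 and 84 to 76 bases before the start, and the GAS letters at 1, 42 to 34 bases before it, with no overlap between them. Of 32817 RefSeq promoter stretches of the same length, 15.7% held the NF-kB letters, 7.01% the GAS letters and 2.97% the IRF letters. Of the other matched genes, only the first of the 2 Vegfa entries held any of the 3, with the IRF letters 142 to 133 bases before the start. These matches are a description of letters and not of binding.

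The libraries hold transcripts of more cell types than the label names. Ganglion cell markers summed to 2232 to 2402 FPKM in AAV2-shCX36 libraries and 1335 to 2311 FPKM in AAV2-scramble libraries, and rod markers to 748 to 1086 FPKM in AAV2-shCX36 libraries and 1158 to 1724 FPKM in AAV2-scramble libraries. Each library summed to between 282721 and 294055 FPKM, and the step between low FPKM values of genes with 1 exon put depth at about 36000000 to 39000000 fragments. At that depth the lowest value of any member, 0.865 FPKM for Cdh5 in AAV2-scramble 4, corresponds to about 138 fragments, an approximation that takes the annotated exon length. Gjd2, the connexin 36 gene, had 17.0, 14.0, 14.6 and 16.6 FPKM in AAV2-shCX36 libraries 1 to 4 and 38.7, 35.9, 17.4 and 18.2 FPKM in AAV2-scramble libraries 1 to 4 (adjusted p = 0.148 in limma); the groups did not overlap, and the gene overlaps A530058N18Rik on the opposite strand. The AAV2-scramble libraries stood apart from each other in the vessel genes, so the results are also given with pairs of them left out.

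None of the 10 genes passed the test between AAV2-shCX36 and AAV2-scramble in limma, in either direction, where 2.24% of all tested genes were higher and 2.52% lower. Vcam1 alone of the 10 was under 0.05 before adjustment, where 22.6% of tested genes were, and its adjusted p was 0.0804 in limma. It was also the only member whose groups did not overlap, where 15.9% of tested genes did not. The median log2 difference of the 10 was 0.23, beside 0.011 over all tested genes. By exact permutation of the group labels (two-sided, 70 arrangements) Vcam1 had a p of 0.0286, the smallest that 4 against 4 libraries can give, and those of the other 9 genes ran from 0.343 (Kdr) to 1.0 (Rgs5).

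**Figure D1:**
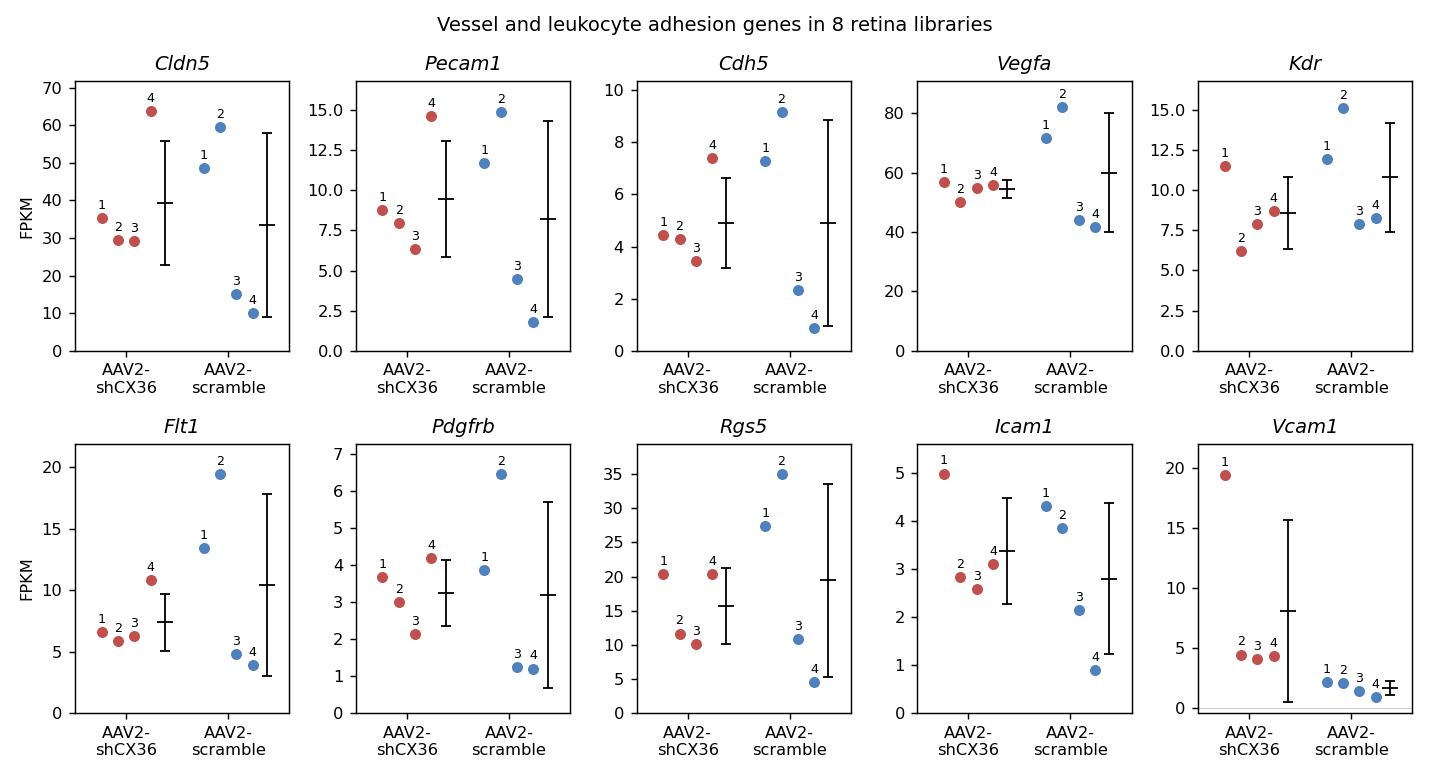
FPKM of the 10 genes in each library, with AAV2-shCX36 in red and AAV2-scramble in blue. Numbers beside points are library numbers, and the black bar and whiskers beside each group are its mean and SD (n = 4). The Vcam1 values of AAV2-shCX36 (4.08 to 19.4 FPKM) lie above those of AAV2-scramble (0.952 to 2.17 FPKM), and the groups overlap in the other 9 genes.

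None of the 3 junction genes of the endothelium passed the test, and all 3 were lowest in AAV2-scramble 3 and 4. Cldn5, the claudin that seals endothelial tight junctions (GRCm38 chromosome 16, 18776847 to 18778262, plus strand, protein-coding), had 35.2, 29.4, 29.3 and 63.7 FPKM in AAV2-shCX36 libraries 1 to 4, against 48.7, 59.6, 15.1 and 10 FPKM in AAV2-scramble libraries 1 to 4. The AAV2-shCX36 values lay mostly between a high and a low pair of controls, and the highest of the 8 was AAV2-shCX36 4. The means were 39.4 ± 16.5 FPKM in AAV2-shCX36 and 33.4 ± 24.5 FPKM in AAV2-scramble (SD, n = 4 each), with a log2 difference of 0.50 ± 0.53 (SE) and an adjusted p of 0.613. In bulk tissue, fewer cells of a type and less RNA per cell cannot be told apart.

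Pecam1, a homophilic adhesion molecule of endothelial junctions that platelets and leukocytes also carry (chromosome 11, 106654217 to 106750628, minus strand), had 8.77, 7.99, 6.34 and 14.6 FPKM in AAV2-shCX36 libraries 1 to 4, against 11.7, 14.9, 4.48 and 1.79 FPKM in AAV2-scramble libraries 1 to 4. Cdh5, the VE-cadherin of adherens junctions (chromosome 8, 104101625 to 104144511, plus strand), had 4.44, 4.27, 3.46 and 7.40 FPKM in AAV2-shCX36 libraries 1 to 4, against 7.27, 9.17, 2.32 and 0.865 FPKM in AAV2-scramble libraries 1 to 4. In both genes AAV2-scramble 2 was highest, AAV2-shCX36 4 second, and AAV2-scramble 3 and 4 were the lowest of the 8 libraries. The log2 differences were 0.43 ± 0.51 for Pecam1 and 0.26 ± 0.50 for Cdh5, with adjusted p of 0.655 and 0.794 in limma. The 95% intervals were -0.70 to 1.71 for Cldn5, -0.72 to 1.57 for Pecam1 and -0.86 to 1.38 for Cdh5, each spanning 0.

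The spread of these genes was widest among the controls. From the lowest to the highest library, the values of Cdh5 spanned 2.14-fold in AAV2-shCX36 and 10.6-fold in AAV2-scramble; the spans of Pecam1 were 2.31-fold in AAV2-shCX36 and 8.34-fold in AAV2-scramble, and those of Cldn5 2.18-fold in AAV2-shCX36 and 5.94-fold in AAV2-scramble. Cdh5 stayed close to a fixed share of Pecam1, as it was 50.5% to 54.6% of Pecam1 in AAV2-shCX36 libraries and 48.4% to 62.2% in AAV2-scramble libraries, both in FPKM. The 19 tested genes of a further endothelial list, which holds no member, were ordered alike. All 19 were lowest in AAV2-scramble 4 and 15 were highest in AAV2-scramble 2. Their list summed to 159, 142, 126 and 233 FPKM in AAV2-shCX36 libraries 1 to 4 and 204, 268, 92.6 and 55.5 FPKM in AAV2-scramble libraries 1 to 4. Over all tested genes, 21.3% were lowest in AAV2-scramble 4, and 9 of the 10 members were, Kdr being the exception.

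Other transcripts moved with the vessel genes among the controls. The oligodendrocyte list summed to 5.04 to 5.84 FPKM in AAV2-shCX36 libraries and to 46.3, 156, 6.08 and 5.68 FPKM in AAV2-scramble 1 to 4. The microglia list summed to 166 to 267 FPKM in AAV2-shCX36 and to 697, 666, 339.9 and 153 FPKM in AAV2-scramble 1 to 4. Red blood cell transcripts ran the other way, at 2.18 to 6.66 FPKM in AAV2-shCX36 and 1.30, 1.05, 23.3 and 18.8 FPKM in AAV2-scramble 1 to 4. The part of these transcripts in the result was not tested.

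Leaving out pairs of controls gave junction differences on either side of 0. The pairs were chosen with their vessel values known. Because controls 3 and 4 are the 2 lowest of the 8 libraries in these genes, which pair stays fixes the direction, so these values are a description and not a test. Without AAV2-scramble 1 and 2 the log2 differences of Cldn5, Pecam1 and Cdh5 were 1.52, 1.36 and 1.20. With controls 3 and 4 omitted instead they were -0.52, -0.50 and -0.68. In limma 5 members had an adjusted p under 0.05 as higher in the first omission (these 3, Vegfa and Pdgfrb), where 4.43% of tested genes did, and 3 as lower in the second (Vegfa, Flt1 and Rgs5), where 14.8% did. Nothing is read from these counts, for the same reason.

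**Figure D2:**
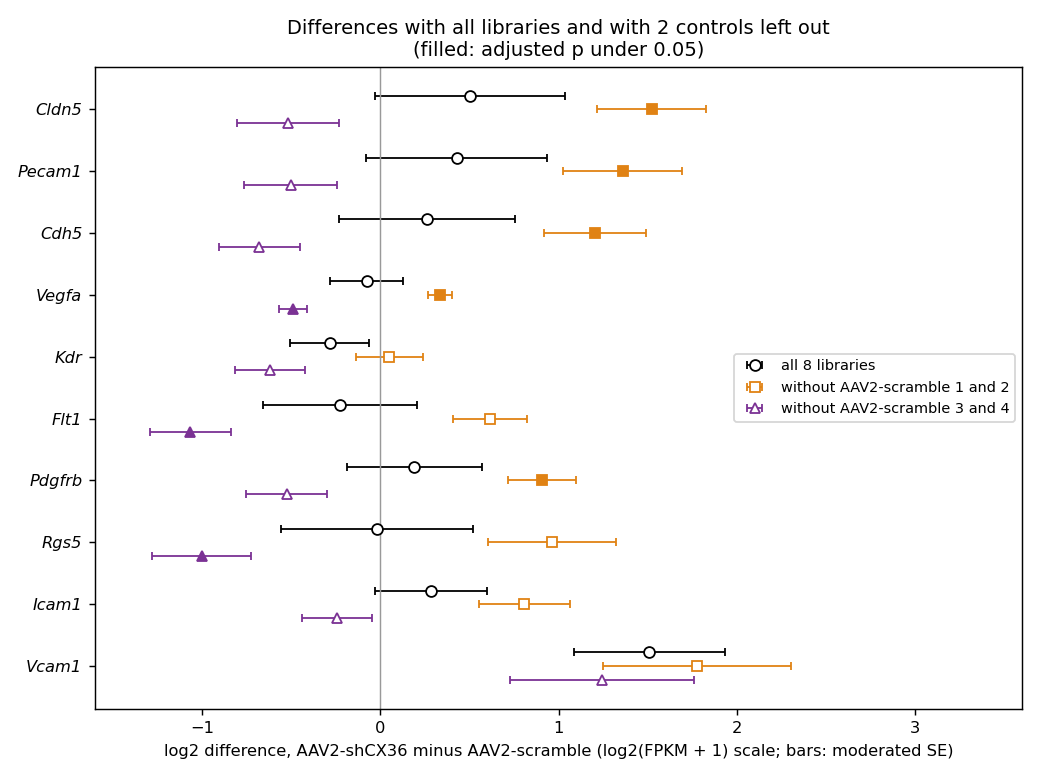
Log2 difference of each of the 10 genes (positive values are higher in AAV2-shCX36), with moderated standard errors, from all 8 libraries (black circles) or with controls 1 and 2 (orange squares) or 3 and 4 (purple triangles) left out. Filled symbols have an adjusted p under 0.05, but the pairs were chosen with the vessel values known. Vegfa lies on both sides of 0, at 0.33 and -0.49, while Vcam1 is above 0 at 1.51, 1.77 and 1.24. As the Vcam1 groups do not overlap, no omission of controls could turn its sign.

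Vegfa, the ligand, was the most abundant of the 10 and the steadiest within AAV2-shCX36. It (chromosome 17, 46016993 to 46032369, minus strand) had 56.9, 50.2, 54.8 and 55.7 FPKM in AAV2-shCX36 libraries 1 to 4, against 71.7, 82.0, 44.1 and 41.7 FPKM in AAV2-scramble libraries 1 to 4. All 4 AAV2-shCX36 values lay inside the gap between AAV2-scramble 1 and 2 above and AAV2-scramble 3 and 4 below. The means were 54.4 ± 2.95 FPKM in AAV2-shCX36 and 59.9 ± 20.1 FPKM in AAV2-scramble (SD, n = 4 each), with a log2 difference of -0.078 ± 0.20 and an adjusted p of 0.856 in limma. The position in that gap again fixes what a pair left out gives, which was 0.33 on the log2 scale when controls 1 and 2 were omitted and -0.49 when controls 3 and 4 were. Müller glia, a source of VEGF-A in retina, had a marker sum of 254 to 416 FPKM in AAV2-shCX36 libraries and 463 to 812 FPKM in AAV2-scramble libraries. Of the 7 marker genes 4 were lower and none higher past the threshold, where 2.52% of all tested genes were lower. The part of Müller glia in the Vegfa values was not tested.

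Neither receptor passed, and Kdr varied less over the libraries than Flt1. Kdr, the main signalling receptor for VEGF-A, which neurons of the mouse retina also carry (chromosome 5, 75932827 to 75978458, minus strand), had 11.5, 6.21, 7.86 and 8.71 FPKM in AAV2-shCX36 libraries 1 to 4, against 11.9, 15.1, 7.89 and 8.25 FPKM in AAV2-scramble libraries 1 to 4. Its highest library was 2.43 times its lowest, beside 4.94 times for Flt1 and 10.6 times for Cdh5. The log2 difference was -0.28 ± 0.22 (adjusted p = 0.476 in limma). Flt1, a receptor that binds VEGF-A tightly and also occurs as a soluble decoy (chromosome 5, 147561604 to 147726011, minus strand), had 6.62, 5.86, 6.30 and 10.8 FPKM in AAV2-shCX36 libraries 1 to 4, against 13.4, 19.5, 4.80 and 3.94 FPKM in AAV2-scramble libraries 1 to 4. AAV2-scramble 1 and 2 were the highest of the 8 libraries and AAV2-scramble 3 and 4 the lowest, and the gene-level FPKM does not separate the soluble form. The log2 difference of Flt1 was -0.23 ± 0.43 (adjusted p = 0.797 in limma). As descriptions, it was 0.61 when controls 1 and 2 were omitted and -1.07 when controls 3 and 4 were.

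Neither pericyte gene passed, and both had their extremes among the controls. Pdgfrb, the receptor through which endothelial PDGF-B recruits pericytes (chromosome 18, 61045150 to 61085061, plus strand), had 3.68, 3.00, 2.14 and 4.18 FPKM in AAV2-shCX36 libraries 1 to 4, against 3.86, 6.44, 1.25 and 1.21 FPKM in AAV2-scramble libraries 1 to 4. Rgs5, a regulator of G-protein signalling concentrated in pericytes (chromosome 1, 169655501 to 169695813, plus strand), had 20.4, 11.7, 10.1 and 20.4 FPKM in AAV2-shCX36 libraries 1 to 4, against 27.3, 35.0, 10.9 and 4.64 FPKM in AAV2-scramble libraries 1 to 4. AAV2-scramble 2 was highest and AAV2-scramble 4 lowest in both, and the groups overlapped. The log2 differences were 0.19 ± 0.38 for Pdgfrb and -0.020 ± 0.54 for Rgs5 (adjusted p = 0.804 and 0.987 in limma). Again as descriptions, Pdgfrb was 0.91 and Rgs5 0.96 when controls 1 and 2 were omitted, and Pdgfrb was -0.52 and Rgs5 -1.002 when controls 3 and 4 were.

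Vcam1 and Icam1, which capture leukocytes on the vessel wall, differed in whether their groups overlapped, and neither passed. Vcam1, the ligand of the integrin of Itga4 and Itgb1 (chromosome 3, 116109949 to 116129688, minus strand), had 19.4, 4.47, 4.08 and 4.35 FPKM in AAV2-shCX36 libraries 1 to 4, against 2.17, 2.11, 1.41 and 0.952 FPKM in AAV2-scramble libraries 1 to 4. Every AAV2-shCX36 library was above every control, and library 1 was far above the other 3. The means were 8.08 ± 7.56 FPKM in AAV2-shCX36 and 1.66 ± 0.584 FPKM in AAV2-scramble (SD, n = 4 each), with a log2 difference of 1.51 ± 0.42 (95% interval 0.55 to 2.46) and an adjusted p of 0.0804 in limma, short of the threshold. Without AAV2-shCX36 library 1 the difference was smaller and passed, at 1.02 with an adjusted p of 0.0388, where 0.748% of tested genes were higher. Vcam1 stayed positive in all 18 alternatives that could be fitted, from 1.01 to 1.93, with adjusted p from 0.0313 to 0.169. With controls 1 and 2 left out it was 1.77, and with controls 3 and 4 left out 1.24 (adjusted p = 0.0838 and 0.109). As the Vcam1 groups did not overlap, leaving out libraries could not turn its sign, so the unchanged sign there is a description.

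Icam1, the ligand of leukocyte integrins that contain Itgb2 (chromosome 9, 21015985 to 21028817, plus strand), had 4.99, 2.84, 2.58 and 3.11 FPKM in AAV2-shCX36 libraries 1 to 4, against 4.31, 3.85, 2.15 and 0.906 FPKM in AAV2-scramble libraries 1 to 4. The groups overlapped, with AAV2-shCX36 1 highest and AAV2-scramble 4 lowest. The log2 difference was 0.28 ± 0.31 (95% interval -0.43 to 0.99, adjusted p = 0.630 in limma), and it was 0.81 with controls 1 and 2 left out and -0.24 with controls 3 and 4 left out. GENCODE places an antisense gene over exon bases of each, Gm47079 for Icam1 and Gm43109 for Vcam1, and the strand setting of the counting is not given, so reads of these pairs cannot be told apart. The Icam1 stretch printed above, with its NF-kB and GAS letters, belongs to the adhesion gene whose groups overlapped. No promoter entry was matched for Vcam1, so Icam1 and Vcam1 cannot be compared in these letters.

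Set against Pecam1 in the same library, Vcam1 reached 222, 56.0, 64.4 and 29.7% of the Pecam1 FPKM in AAV2-shCX36 libraries 1 to 4 and 18.6, 14.1, 31.5 and 53.3% in AAV2-scramble libraries 1 to 4, so on this scale the groups overlapped. Icam1 was 21.2% to 56.9% of Pecam1 in AAV2-shCX36 libraries and 25.8% to 50.7% in AAV2-scramble libraries. Whether the Vcam1 and Icam1 transcripts came from endothelium was not tested. With the mean level of the 19 endothelial genes as a covariate, an alternative chosen after seeing the data, Vcam1 had a log2 difference of 1.43 ± 0.41 and Icam1 of 0.12 ± 0.19 (adjusted p = 0.0313 and 0.672 in limma). Flt1 passed as lower in this fit, at -0.50 ± 0.11 (adjusted p = 0.0115), and none of the other 8 genes passed. The fit called 12.5% of all tested genes higher and 11.8% lower, so 1 member in each direction is no more than that background.

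**Figure D3:**
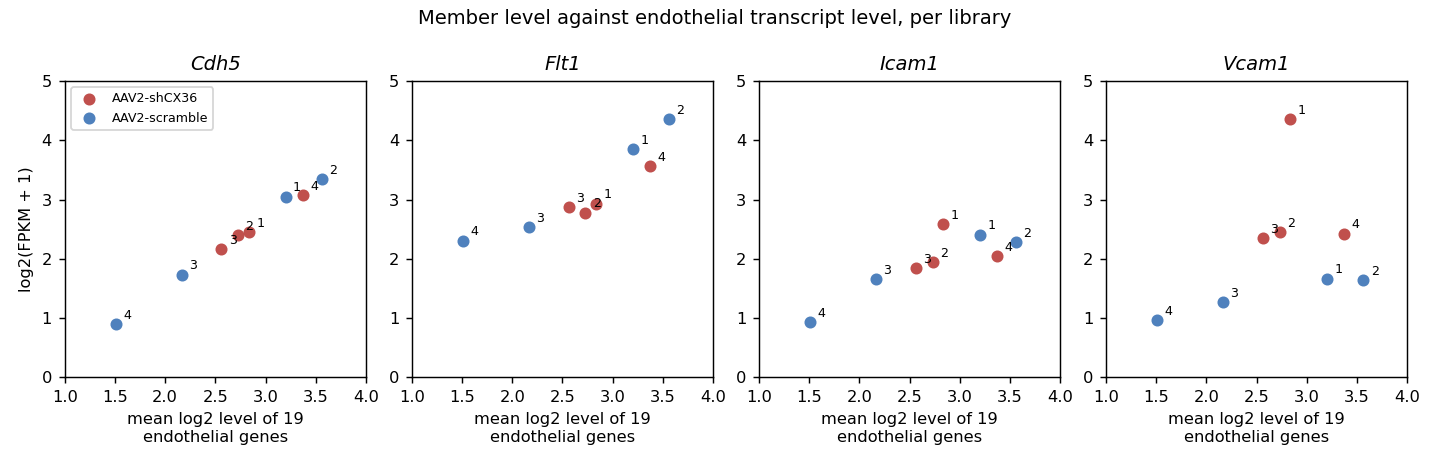
Level of Cdh5, Flt1, Icam1 and Vcam1 as log2(FPKM + 1) on the vertical axis, against the mean log2 level of the 19 endothelial list genes on the horizontal axis, for each numbered library of AAV2-shCX36 (red) and AAV2-scramble (blue). Cdh5 rises with that level in both groups, whereas the 4 AAV2-shCX36 points of Vcam1, led by library 1, lie above those of the controls.

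In order of mean FPKM over the 8 libraries the genes ran Vegfa (57.1), Cldn5 (36.4), Rgs5 (17.6), Kdr (9.68), Flt1 (8.91), Pecam1 (8.82), Cdh5 (4.90), Vcam1 (4.87), Pdgfrb (3.22) and Icam1 (3.09). The ranges of every pair of neighbours in this order overlapped. Within each library, however, Cldn5 exceeded Rgs5 and Pecam1 exceeded Cdh5 in all 8.

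By profile over the 8 libraries, each gene centred on its own mean, the tested genes nearest to Vcam1 were Cxcl10 (0.25), Gbp5 (0.27) and Serpina3n (0.31), where the bracketed value is the root mean square difference on the log2 scale. Having been chosen for this likeness, they share the order of the libraries with Vcam1 by selection. Cxcl10, a chemokine for T cells, had 18.8, 4.59, 3.81 and 3.24 FPKM in AAV2-shCX36 libraries 1 to 4 and 1.41, 1.72, 0.575 and 0.210 FPKM in AAV2-scramble libraries 1 to 4. The nearest to Icam1 were Osm (0.13), Jun (0.15) and Slc15a3 (0.16). The nearest to Cldn5 were Pecam1 (0.16), Cdh5 (0.18) and Robo4 (0.19), of which 2 are members. The nearest to Vegfa were Hspa5 (0.045), Ttc39aos1 (0.056) and Kdm6b (0.064).

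Other vessel genes were described from lists of related genes, with means ± SD (n = 4 each). In the endothelial list none of 19 tested genes passed, and the median log2 difference was 0.22. The sign depended on the scale: 18 of the 19 log2 differences were positive, beside 6741 of all 12858, but by mean FPKM 10 of the 19 were lower in AAV2-shCX36. Averaged over these genes, log2 levels of AAV2-shCX36 1, 2 and 3 (2.56 to 2.83) lay below those of controls 1 and 2 and above those of controls 3 and 4. Vwf, the von Willebrand factor of venous and activated endothelium, had 6.99 ± 1.27 FPKM in AAV2-shCX36 and 3.06 ± 2.30 FPKM in AAV2-scramble (adjusted p = 0.121 in limma) and was the only one with an unadjusted p under 0.05. In the barrier list none of 18 passed and the median was -0.12. Cav1, the coat protein of caveolae, had 4.82 ± 1.55 FPKM in AAV2-shCX36 and 8.89 ± 2.40 FPKM in AAV2-scramble (log2 -0.78, adjusted p = 0.0797), and Tspan12, which promotes norrin signalling through Fzd4, had 11.3 ± 0.728 FPKM in AAV2-shCX36 and 9.37 ± 1.20 FPKM in AAV2-scramble (log2 0.25, adjusted p = 0.152). The groups did not overlap in either gene, where 15.9% of all tested genes did not. Tjp1, Ocln, Mfsd2a and Slc2a1, of tight junctions and of barrier transport, had log2 differences of -0.19, -0.19, -0.17 and -0.18. Lsr, of tricellular junctions, and Slc7a5 and Abcg2, of barrier transport, had 0.20, 0.23 and 0.030. Of the 18 differences 6 were positive and 12 negative.

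In the mural list 1 of 8 tested genes passed, as lower, where 2.52% of all tested genes were lower. Vtn, vitronectin, fell to 78.7 ± 11.2 FPKM in AAV2-shCX36, against 114 ± 10.9 FPKM in AAV2-scramble (log2 -0.54 ± 0.11, adjusted p = 0.0332 in limma). It is also a transcript of photoreceptors. Of 6 rod markers 4 were lower past the threshold, where 2.52% of all tested genes were. The part of photoreceptors in the Vtn values was not tested. Vtn did not pass without AAV2-shCX36 1, 2 or 3 or without AAV2-scramble 2 or 3, with adjusted p of 0.0349 to 0.0869 in limma over the 8 single omissions. The contractile genes Acta2 and Myh11 had log2 differences of 0.19 and 0.13. Of 12 tested genes of angiogenic signalling none passed and the median was -0.031. Jag1, a Notch ligand, had 3.97 ± 0.633 FPKM in AAV2-shCX36 and 5.78 ± 1.04 FPKM in AAV2-scramble and Pdgfa, a PDGF chain, had 4.14 ± 0.234 FPKM in AAV2-shCX36 and 3.22 ± 0.369 FPKM in AAV2-scramble (log2 -0.45 and 0.29, adjusted p = 0.0939 and 0.107). Vegfb, Nrp1 and Angpt2, a second VEGF, a co-receptor and a Tie2 ligand, had log2 differences of 0.013, 0.26 and -0.39.

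Among 12 tested hypoxia response genes, which include regulators and targets of the factors that induce Vegfa, 1 fell and none rose, with a median of -0.19. Over all tested genes 2.52% fell and 2.24% rose. Ndrg1, a hypoxia-induced gene also strong in myelin-forming cells, had 59.4, 70.5, 61.5 and 94.9 FPKM in AAV2-shCX36 libraries 1 to 4 and 127, 137, 114 and 126 FPKM in AAV2-scramble libraries 1 to 4. It fell by 0.83 on the log2 scale (adjusted p = 0.0143 in limma), and its groups did not overlap; without single libraries its adjusted p ran from 0.00197 to 0.0521, and it did not pass without AAV2-shCX36 2 or 3. The oxygen sensor gene Egln1 had 22.5 ± 0.977 FPKM in AAV2-shCX36 and 27.6 ± 2.52 FPKM in AAV2-scramble and Vhl, which marks hypoxia factors for destruction, 9.95 ± 0.492 FPKM in AAV2-shCX36 and 12.2 ± 1.26 FPKM in AAV2-scramble (adjusted p = 0.0635 and 0.0980). In the other direction, the hypoxia-induced genes Pdk1, Ddit4 and Bnip3 had log2 differences of 0.22, 0.19 and 0.15 (adjusted p = 0.142, 0.224 and 0.312), and of the 12 differences 3 were positive and 9 negative.

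**Figure D4:**
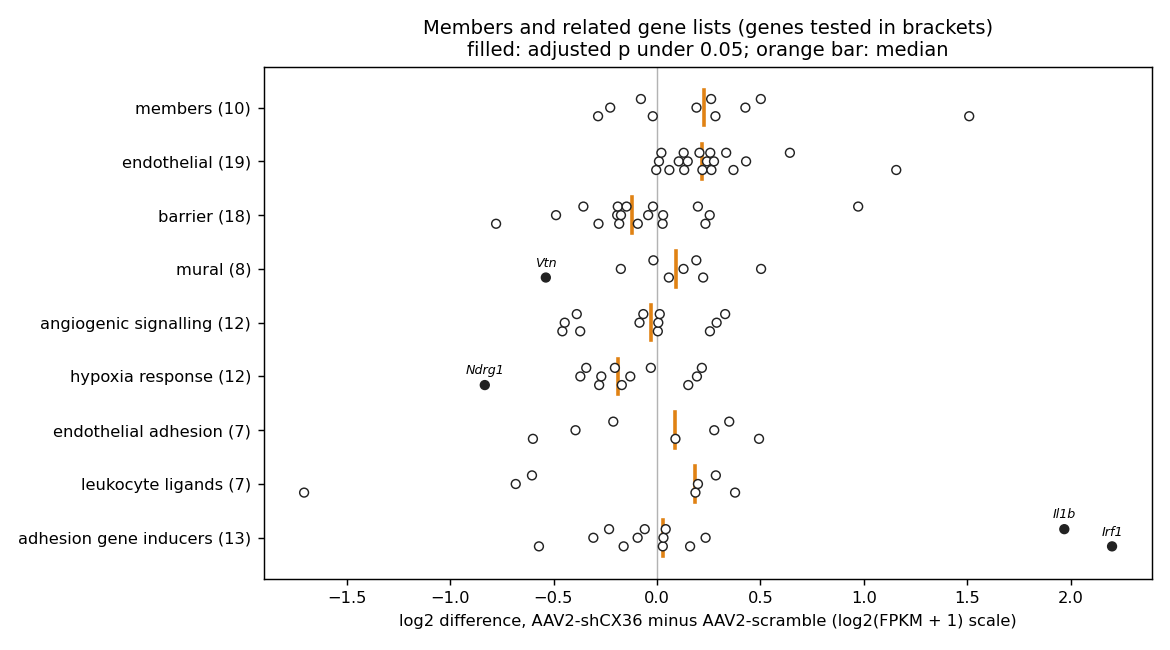
Log2 difference (positive values are higher in AAV2-shCX36) of every tested gene of the 10 members and of 8 related lists, with the number tested in brackets. Orange bars are medians and filled points have an adjusted p under 0.05. No member is filled; Vtn and Ndrg1 are filled at -0.54 and -0.83, and Il1b and Irf1 at 1.97 and 2.20.

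Of 13 tested genes that induce or carry signals to adhesion molecules, 2 rose and none fell, and the median was 0.028. Over all tested genes 2.24% rose and 2.52% fell. Irf1, an interferon-induced factor, had 15.1 ± 4.53 FPKM in AAV2-shCX36 and 2.59 ± 1.36 FPKM in AAV2-scramble, and Il1b, the interleukin-1 beta cytokine, 5.37 ± 2.53 FPKM in AAV2-shCX36 and 0.608 ± 0.538 FPKM in AAV2-scramble (log2 2.20 and 1.97, adjusted p = 0.00661 and 0.0132 in limma). Irf1 was at 20.6, 15.7, 14.6 and 9.51 FPKM in AAV2-shCX36 libraries 1 to 4 and 3.26, 4.17, 1.58 and 1.35 FPKM in AAV2-scramble libraries 1 to 4, and Il1b at 8.71, 3.52, 3.31 and 5.95 FPKM in AAV2-shCX36 libraries 1 to 4 and 1.00, 1.14, 0.182 and 0.109 FPKM in AAV2-scramble libraries 1 to 4. The groups did not overlap in either gene, where 15.9% of all tested genes did not. The Il1b difference depended on how low values were damped, at 3.25 with a pseudocount of 0.1 and 2.79 as TPM (adjusted p = 0.0234 and 0.0167). The NF-kB genes Nfkb1, Rela and Nfkbia had log2 differences of -0.31, -0.094 and -0.16, Tnf of -0.059, and none passed. Ifngr1, a chain of the interferon gamma receptor, had 12 ± 2.32 FPKM in AAV2-shCX36 and 18.5 ± 4.59 FPKM in AAV2-scramble (adjusted p = 0.113). The rise of Irf1 passed in all 19 alternatives, and that of Il1b in 17 of 18, the exception being without AAV2-shCX36 1 and 4 (adjusted p = 0.108; range 0.00105 to 0.108).

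None of 7 tested genes of the endothelial adhesion list passed. Cx3cl1, a membrane-bound chemokine that retinal neurons also make, had 107 ± 3.44 FPKM in AAV2-shCX36 and 76.9 ± 13.9 FPKM in AAV2-scramble (log2 0.49, adjusted p = 0.0503 in limma), and Cd99l2 had 25.7 ± 0.894 FPKM in AAV2-shCX36 and 21.2 ± 2.61 FPKM in AAV2-scramble (log2 0.28, adjusted p = 0.102). Jam2, a junctional adhesion molecule, had 49.5 ± 2.28 FPKM in AAV2-shCX36 and 57.5 ± 4.77 FPKM in AAV2-scramble (log2 -0.21, adjusted p = 0.121). These were the 3 genes of the list whose groups did not overlap, 2 of them higher and 1 lower. Of all tested genes 15.9% did not overlap. Its relatives Jam3 and F11r had log2 differences of -0.39 and -0.60 (adjusted p = 0.199 and 0.432). Icam2, the constitutive relative of Icam1 on endothelium, had 2.20 ± 0.889 FPKM in AAV2-shCX36 and 1.63 ± 1.12 FPKM in AAV2-scramble. Of the 7 tested leukocyte partners none passed. Selplg, the selectin ligand, which microglia also carry, had 6.19, 6.62, 7.87 and 13.6 FPKM in AAV2-shCX36 libraries 1 to 4 and 52.3, 55.9, 22.3 and 10.3 FPKM in AAV2-scramble libraries 1 to 4 (log2 -1.71, adjusted p = 0.0848). The groups overlapped in Selplg, and AAV2-scramble 1 and 2 were highest. Itgb1, a chain of the Vcam1 receptor, had 27.9 ± 1.87 FPKM in AAV2-shCX36 and 22.9 ± 3.21 FPKM in AAV2-scramble (log2 0.28, adjusted p = 0.137), and its partner Itga4 1.39 ± 0.205 FPKM in AAV2-shCX36 and 1.07 ± 0.0457 FPKM in AAV2-scramble. Itgb2 and Itgam, chains of Icam1 receptors that microglia also express, had log2 differences of -0.68 and -0.60.

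Selectins and several leukocyte integrins lay under the filter, with a mean below 1 FPKM. The genes named in this paragraph and the next were chosen after their values were seen. Sele, E-selectin, which endothelium makes only when activated, had 1.02, 0.719, 0.194 and 0.0857 FPKM in AAV2-shCX36 libraries 1 to 4 and 0, 0, 0.0261 and 0 FPKM in AAV2-scramble libraries 1 to 4. In both genes a 0 means that the table lists 0. Selp, P-selectin, had 0.252, 0.573, 0 and 0.0464 FPKM in AAV2-shCX36 libraries 1 to 4 and 0, 0, 0 and 0.00747 FPKM in AAV2-scramble libraries 1 to 4. The AAV2-shCX36 libraries 1 and 2 held most of both transcripts, and the groups overlapped in Selp only. In the fit with no filter on low values Sele and Selp did not pass (adjusted p = 0.223 and 0.400 in limma).

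Itgal, the alpha chain of the Icam1 receptor of lymphocytes, had 0.620, 0.746, 0.519 and 0.457 FPKM in AAV2-shCX36 libraries 1 to 4 and 0.0777, 0.0926, 0.161 and 0.166 FPKM in AAV2-scramble libraries 1 to 4. Itgb7, an integrin chain of gut-homing and other lymphocytes, had 0.262, 0.280, 0.398 and 0.280 FPKM in AAV2-shCX36 libraries 1 to 4 and 0.0277, 0.0439, 0.0878 and 0.00450 FPKM in AAV2-scramble libraries 1 to 4. Both rose in the fit with no filter (adjusted p = 0.0222 and 0.0209), as did Anpep, a pericyte and myeloid peptidase (adjusted p = 0.0438), so 3 of the 25 listed pathway genes under the filter passed as higher and none as lower, where 0.712% of the 24860 genes were higher. In all, the groups did not overlap in 6 of these 25 genes, each higher in AAV2-shCX36, beside 3.24% of the 12002 genes under the filter. Among the 12858 genes that passed the filter, 8.85% did not overlap and were higher. Neither background was matched to the 25 genes in level, so nothing is read from these shares.

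The summed markers of blood leukocytes were also higher in AAV2-shCX36 than in AAV2-scramble. The 7 T cell markers, none of which reached the filter, summed to 1.99 to 2.94 FPKM in AAV2-shCX36 libraries and 0.475 to 0.952 FPKM in AAV2-scramble libraries. Of these Cd3d, Cd3e, Cd3g and Cd8b1 were listed at 0 in all 4 controls, and the groups overlapped in Cd4, Cd8a and Cd8b1. In AAV2-shCX36 libraries Cd3d had 0.0174 to 0.322 FPKM, Cd3e 0.0351 to 0.193, Cd3g 0.159 to 0.442 and Cd8b1 0 to 0.341. Such values lie near the floor. Lck was the largest part of the sum in every AAV2-shCX36 library, at 0.822 to 1.38 FPKM, against 0.174 to 0.748 FPKM in AAV2-scramble libraries. The 5 listed neutrophil and monocyte markers summed to 2.70 to 6.13 FPKM in AAV2-shCX36 libraries and 0.00543 to 0.304 FPKM in AAV2-scramble libraries. In each AAV2-shCX36 library more than 50% of this sum was Ly6c2, a monocyte gene, and S100a8 overlapped between groups. Ly6c2 rose to 2.97 ± 1.09 FPKM in AAV2-shCX36, against 0.0519 ± 0.0672 FPKM in AAV2-scramble (adjusted p = 0.00188 in limma). Its near-identical relative Ly6c1, which endothelium expresses, had 14.6, 13.4, 14.1 and 28.2 FPKM in AAV2-shCX36 libraries 1 to 4 and 29.9, 38.1, 6.55 and 4.58 FPKM in AAV2-scramble libraries 1 to 4. Ly6c2 had 4.20, 1.90, 3.57 and 2.22 FPKM in AAV2-shCX36 libraries 1 to 4. It had 0.0284, 0.151, 0.0285 and 0 FPKM in AAV2-scramble libraries 1 to 4. Of the controls, AAV2-scramble 2 was highest and AAV2-scramble 4 lowest in both genes. Within AAV2-shCX36, library 2 was lowest in both, but library 4 was highest in Ly6c1 and library 1 in Ly6c2. Whether reads of Ly6c1 were assigned to Ly6c2 was not tested. The part of the leukocyte transcripts in the Vcam1 values was not tested either.

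**Figure D5:**
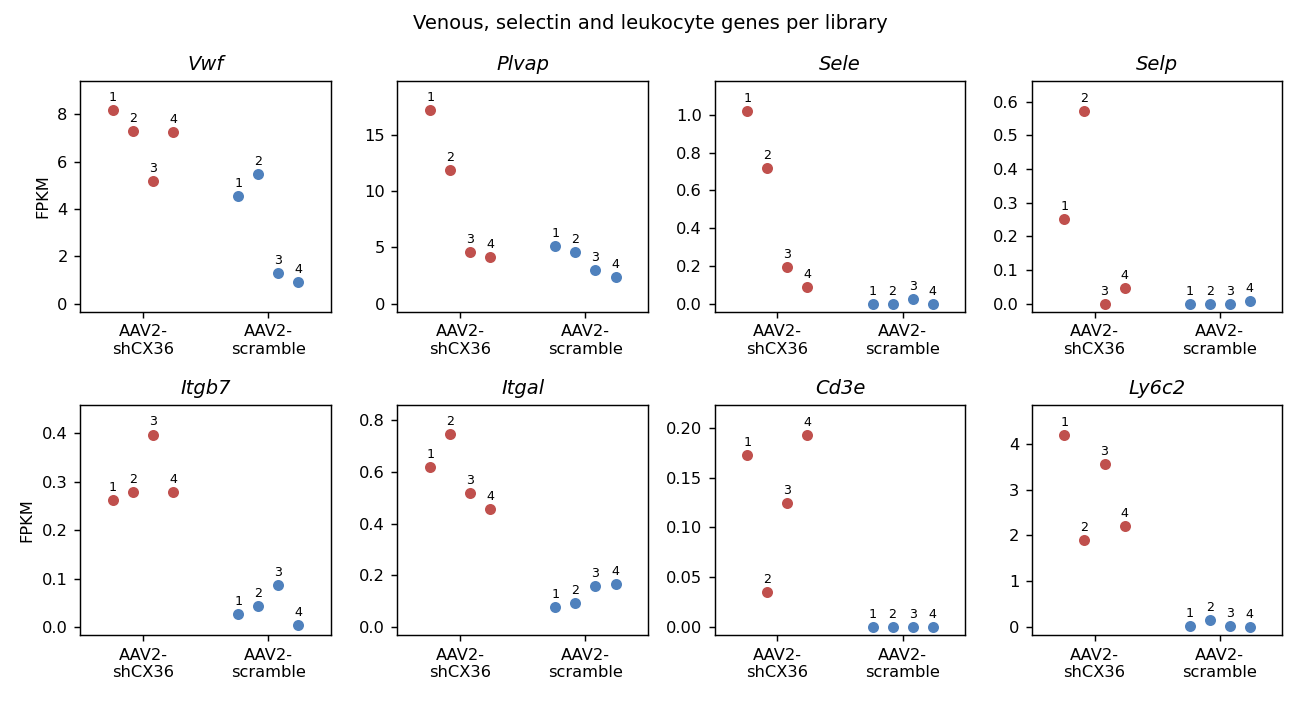
FPKM per library of genes of veins and activated endothelium (Vwf, Plvap, Sele, Selp) and of leukocytes (Itgb7, Itgal, Cd3e, Ly6c2), with AAV2-shCX36 in red, AAV2-scramble in blue and library numbers beside the points. The genes drawn were chosen with their values known. Not drawn are the 7 tested leukocyte partners, of which 4 had positive and 3 negative log2 differences. The negative ones were Selplg (-1.71), Itgb2 (-0.68) and Itgam (-0.60). Sele and Plvap are highest in AAV2-shCX36 libraries 1 and 2. Cd3e is listed at 0 in every AAV2-scramble library and at 0.0351 to 0.193 FPKM in AAV2-shCX36 libraries.

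Plvap, a protein of the diaphragms of leaky capillaries, which intact retinal vessels lack, had 17.3, 11.9, 4.62 and 4.18 FPKM in AAV2-shCX36 libraries 1 to 4 and 5.09, 4.61, 2.97 and 2.40 FPKM in AAV2-scramble libraries 1 to 4. It too was highest in AAV2-shCX36 libraries 1 and 2, its groups overlapped, and it did not pass (log2 0.97 ± 0.40, adjusted p = 0.196 in limma). It was named after its values were seen. Pigment epithelium markers, whose tissue adjoins the fenestrated choroid, summed to 5.69, 2.79, 2.62 and 2.68 FPKM in AAV2-shCX36 libraries 1 to 4 and 2.71, 2.89, 3.16 and 2.63 FPKM in AAV2-scramble libraries 1 to 4. In AAV2-shCX36 1, Ttr alone gave 3.15 of the 5.69 FPKM. Among the same markers Rpe65 was listed at 0 in every AAV2-shCX36 library, and Rgr was lowest in AAV2-shCX36 1 (0.0109 FPKM). Fibroblast markers summed to 3.14, 1.33, 0.746 and 1.90 FPKM in AAV2-shCX36 libraries 1 to 4 and 1.17, 1.88, 0.257 and 0.534 FPKM in AAV2-scramble libraries 1 to 4, and lens markers to 183, 24.9, 36.2 and 370.0 FPKM in AAV2-shCX36 libraries 1 to 4 and 8.26, 18.2, 9.54 and 32.1 FPKM in AAV2-scramble libraries 1 to 4. AAV2-shCX36 1, the highest library for Plvap, Vcam1, Icam1 and Sele, was also the highest for the pigment epithelium and fibroblast sums, and the second highest for the lens sum after AAV2-shCX36 4. The part of these transcripts in those values was not tested.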

How the data were processed

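RNA from mouse retina was sequenced as 150 bp paired-end reads in 8 libraries, 4 per group, per the labels' protocols. The submitters' processing notes name fastp, HISAT2, HTSeq, R 3.2.0, DESeq2 and the builds GRCm38 and mm10. Annotation, gene lengths and strand setting are not given in the sources used here. The values are FPKM as deposited by the authors, so no count model was run, and a gene whose length was mis-stated has a shifted level and, through the added 1, a shifted log2 difference. The design text speaks of different mice without saying which library came from which, and each p-value reflects the scatter among libraries, which may be technical. Positions are from GENCODE vM21.

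The test was limma 3.58.1 (R 4.3.3) with lmFit and eBayes with a trend on log2(FPKM + 1), a scale that understates changes of low genes, for genes averaging 1 FPKM or more, with Benjamini-Hochberg adjustment over all 12858. On simulated data of this comparison with 12737 genes, the test recovered 56.0% of 50 genes set to a 1.5-fold change, 80.0% of 50 set to 2-fold, 96.0% of 50 set to 4-fold and 90.0% of 50 set to 8-fold, with 9 unchanged genes among 170 calls. The changed genes were drawn at random and the noise was drawn separately for each gene, without the shared split among the controls. These rates therefore do not apply to the members, whose standard errors reached 0.53 for Cldn5 and 0.54 for Rgs5. The members, lists, omitted pairs of libraries and rules were chosen with earlier results of these data known. Named besides the 10 members were called genes of 8 related lists (at most 6 per list, by p), up to 2 more with an unadjusted p under 0.05, and the 3 nearest profiles of Icam1, Vcam1, Cldn5 and Vegfa; other genes were chosen as examples of a list's known roles or after their values were seen. The results of 2 list genes are not reported here. Ackr1 and Ly6g were not found in the table under those symbols. Alternatives were a pseudocount of 0.1, median-of-ratios scaling, rescaling to TPM, no filter, a filter of 5 FPKM, no variance trend, a replicate block, and libraries left out; an endothelial covariate was added after seeing the data. Tables were handled with pandas 2.3.3 and numpy 2.4.6 in Python 3.11.15, and figures drawn with matplotlib 3.10.9.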

Additional observations from a re-analysis of the deposited data

Results flagged for a closer look

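In 2 cases 1 of the 4 libraries of a group lay far from the other 3, as the gap to the nearest divided by the range, among 54 gene and group pairs; chance gives about 1 in 20. Vcam1 was at 19.4 FPKM in AAV2-shCX36 1, with the other AAV2-shCX36 libraries between 4.08 and 4.47 FPKM. Flt1 was at 10.8 FPKM in AAV2-shCX36 4, with the others between 5.86 and 6.62 FPKM.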

How the results depend on the processing

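The count of higher and lower genes was 288 and 324. It was 177 and 134 with no filter, where 24860 genes were tested, 565 and 393 with controls 1 and 2 left out, 1542 and 1914 with controls 3 and 4 left out, 68 and 28 with AAV2-shCX36 1 and 4 left out, and 1603 and 1521 with the endothelial covariate. With single libraries left out it ran from 96 to 575 higher and 70 to 591 lower, lowest without AAV2-shCX36 1 or 2 and highest without AAV2-scramble 4. Apart from the filters and the libraries left out, which change what was tested, the cause was not tested. With the replicate number as a block the counts were 107 and 57. Deviations of same-numbered libraries correlated at 0.128, -0.302, 0.226 and -0.269, and only number 3 correlated best with its own. The labels give no pairing, and these correlations cannot tell whether the numbers pair the libraries, because the split among the controls could hide a shared part. No member passed in the block fit.

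The members called higher were 0 in the fit with all libraries, 5 without AAV2-scramble 1 and 2 (4.43% of tested genes), 1 with the covariate, and 0 to 1 without single libraries (Vcam1, without AAV2-shCX36 1). Those called lower were 0, 3 without AAV2-scramble 3 and 4 (Vegfa, Flt1 and Rgs5; 14.8% of tested genes), 1 with the covariate (Flt1), and 0 without any single library. The pairs left out were chosen with the vessel values known, so the counts and differences without them are descriptions and not tests. Signs turned in 9 members. Without AAV2-scramble 3 and 4 the log2 differences were -0.52 for Cldn5, -0.50 for Pecam1, -0.68 for Cdh5, -0.52 for Pdgfrb and -0.24 for Icam1. Without AAV2-scramble 1 and 2 they were 0.33 for Vegfa, 0.050 for Kdr, 0.61 for Flt1 and 0.96 for Rgs5. Pdgfrb was -0.046 without AAV2-shCX36 1 and 4 and -0.036 with the covariate, where Cdh5 was -0.054. Rgs5, at -0.020, was 0.00350 with a pseudocount of 0.1 and 0.00643 as TPM. Without single libraries the ranges were -0.046 to 0.79 for Pecam1, -0.19 to 0.63 for Cdh5, -0.23 to 0.091 for Vegfa, -0.54 to 0.14 for Flt1, -0.052 to 0.53 for Pdgfrb, -0.53 to 0.36 for Rgs5 and -0.013 to 0.48 for Icam1. Vcam1 and the 16 named list genes kept their sign in every alternative that could be fitted. Where the groups of a gene do not overlap, as in Vcam1, leaving out libraries cannot turn its sign. A filter of 5 FPKM removed Cdh5, Pdgfrb, Icam1, Vcam1, Jag1, Pdgfa and Il1b. FPKM alone gives no exact counting error, and genes under 1 FPKM are the least certain.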
